A study of Mus musculus with 2756 samples.

Results

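N4d.late1 is 1 of the 4 clusters of neurons that the authors named for cells found 4 days after labelling. Its members were taken by the cluster name that the labels give each cell, and 146 of the 2756 cells of the series carried it. All of them were collected at 96 h: 4 after an injection at embryonic day 12 (E12), 1 at E13, 135 at E14 and 6 at E15. The cells came from the putative primary somatosensory cortex of mouse embryos, where FlashTag, a dye taken up by cells dividing at the ventricle, was injected at E12, E13, E14 or E15. The groups compared are N4d.late1, N4d.early2 and N4d.late2, first within the cells of E14 collected at 96 h, of which they made up 135, 47 and 29 of 254 cells. No strain, genotype, sex or treatment other than the dye is given by the labels, and no animal is named, so each pair of injection day and collection time is 1 sample, its cells are not replicates, and the differences have no replicate check.

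Neurons of the neocortex are born from progenitors at the ventricle, migrate outward and settle in layers, with later-born cells passing earlier ones. After they settle they extend axons and dendrites, replace migration genes with those of receptors, channels and synapses, and express transcription factors that mark their layer. MEF2C is a transcription factor of maturing excitatory neurons, CAMK2B is a subunit of the calcium/calmodulin-dependent kinase II, and CUX1 is a transcription factor of upper layer neurons.

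Read counts of 16441 genes were used as deposited. Summed over the E14 96 h cells, N4d.late1 held 38.4 M counts, N4d.early2 19.3 M and N4d.late2 5.72 M. The median cell had 256091 counts in N4d.late1, 403585 in N4d.early2 and 186168 in N4d.late2. The median share of counts from the mitochondrial genome was 7.36% in N4d.late1, 4.44% in N4d.early2 and 8.43% in N4d.late2. After each cell was thinned to 50000 counts, a median of 2943 genes was detected in N4d.late1, 3053 in N4d.early2 and 2200 in N4d.late2. N4d.late1 thus had the largest sum and lay between the other 2 clusters in the 3 measures per cell.

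One set of cells stood apart from most others in detected genes. The titles hold a run code and a pair of numbers whose meaning is not stated, and the E14 and E15 cells of 96 h share a run code. In that run, the 17 cells with 23 as the second number had 6518 to 8484 detected genes (median 7952). The other 474 cells had 2066 to 7023 (median 4191), so the ranges overlap. In E14 at 96 h all 10 of them were N4d.late1 cells, while the E15 ones were 5 N4d.late2 cells and 2 astrocytes. No N4d.early2 or N4d.late2 cell of E14 passed 6000 detected genes, against 19 N4d.late1 cells. The results are therefore given with and without the 10 cells where they rest on them, and the part of these cells in the results that were not recomputed was not tested.

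**Figure D1:**
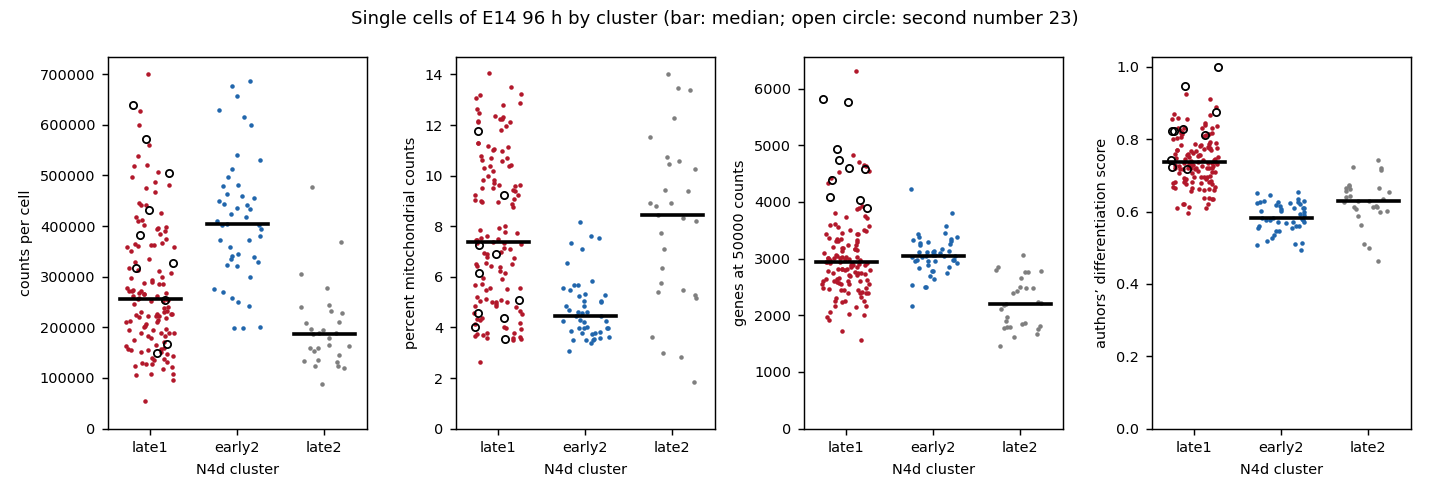
Counts, percent of mitochondrial counts, detected genes after thinning to 50000 counts and the authors' differentiation score (no unit) for each E14 96 h cell in N4d.late1, N4d.early2 and N4d.late2; bars are medians and open circles are the 10 cells with 23 as the second number. N4d.late1 lies between the other clusters in counts and mitochondrial share, and its median score of 0.737 lies above 0.583 in N4d.early2 and 0.630 in N4d.late2.

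N4d.late1 made up most N4d neurons of E14 and few of any other day. Its share of the N4d cells at 96 h was 2.78% at E12 (4 of 144 cells, 95% Clopper-Pearson interval 0.762 to 6.96%), 0.481% at E13 (1 of 208, 0.0122 to 2.65%), 64.0% at E14 (135 of 211, 57.1 to 70.5%) and 4.62% at E15 (6 of 130, 1.71 to 9.78%). The intervals cover counting error only. E14, with 64.0%, and E15, with 4.62%, share a run code, but each is 1 sample, and the part of the run in these shares was not tested. Leaving out the cells with 23 as the second number gave 62.2% at E14. At E14 the rest of the N4d cells were N4d.early2 (22.3%) and N4d.late2 (13.7%). N4d.early1 had 0 of 211 cells (95% Clopper-Pearson interval 0 to 1.73%). The E14 cells of N4d.late1 were found under all 10 first numbers of the titles, with 8 to 20 cells each. The shares rest on the authors' cluster borders, and the sort kept the 5% of cells that were brightest.

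**Figure D2:**
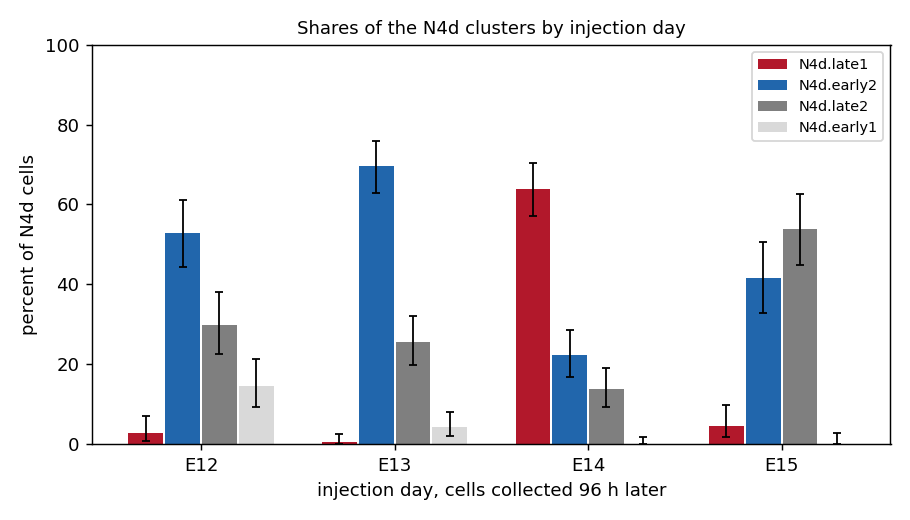
Percent of N4d cells in each N4d cluster (bars) at 96 h after injection at E12, E13, E14 and E15, with 95% Clopper-Pearson intervals (lines). N4d.late1 reaches 64.0% at E14 and stays between 0.481% and 4.62% on the other days.

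The scores that the authors deposited for each cell placed N4d.late1 of E14 apart from N4d.early2 and N4d.late2 of E14. The score for differentiation had a median of 0.737 in N4d.late1 (quartiles 0.695 and 0.791), 0.583 in N4d.early2 and 0.630 in N4d.late2. The score for birth date at 96 h had a median of 0.313 in N4d.late1, 0.595 in N4d.early2 and 0.699 in N4d.late2, and the highest N4d.late1 cell, at 0.469, lay below the first quartile of N4d.late2, at 0.490. N4d.early1, which had no cells at E14, came nearer to N4d.late1. Its differentiation medians were 0.665 at E12 and 0.706 at E13, and its birth date medians 0.475 and 0.409. The 4 N4d.late1 cells of E12 had medians of 0.7215 and 0.394. Both scores were made by the authors from the same cells and carry no unit.

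Levels are given below as CPM, the counts of a gene per M counts of the sum over a cluster's cells, and differences as log2 ratios with 5 CPM added to both sides, which understates the change of low genes. The clusters were made by the authors from the genes of these cells, so the differences describe the cluster and are no test of it. Of the 3 genes given as its markers, 2 stood higher in N4d.late1. Mef2c (chr13:83504034-83667080, GRCm38) had 2738 CPM in N4d.late1, against 1314 CPM in N4d.early2 and 1124 CPM in N4d.late2, with log2 differences of 1.06 and 1.28. All E14 cells of the 3 clusters held counts of it, and the N4d.late1 median over cells was 2359 CPM (quartiles 1453 and 3549). Camk2b had 697 CPM in N4d.late1, against 341 CPM in N4d.early2 and 180 CPM in N4d.late2. Cux1 did not follow the label: it had 547 CPM in N4d.late1, against 553 CPM in N4d.early2 and 694 CPM in N4d.late2. It was lower than in both on the other 3 days as well, with 339, 4.45 and 366 CPM in the N4d.late1 cells of E12, E13 and E15. After thinning to 50000 counts, 97.0% of N4d.late1 cells had a count of Camk2b and 90.4% one of Cux1. In the 61 astrocytes of the run shared by E14 and E15 at 96 h, shown as another cell type, these shares were 44.3% and 63.9%. The astrocytes had a median of 337053 counts a cell before thinning.

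**Figure D3:**
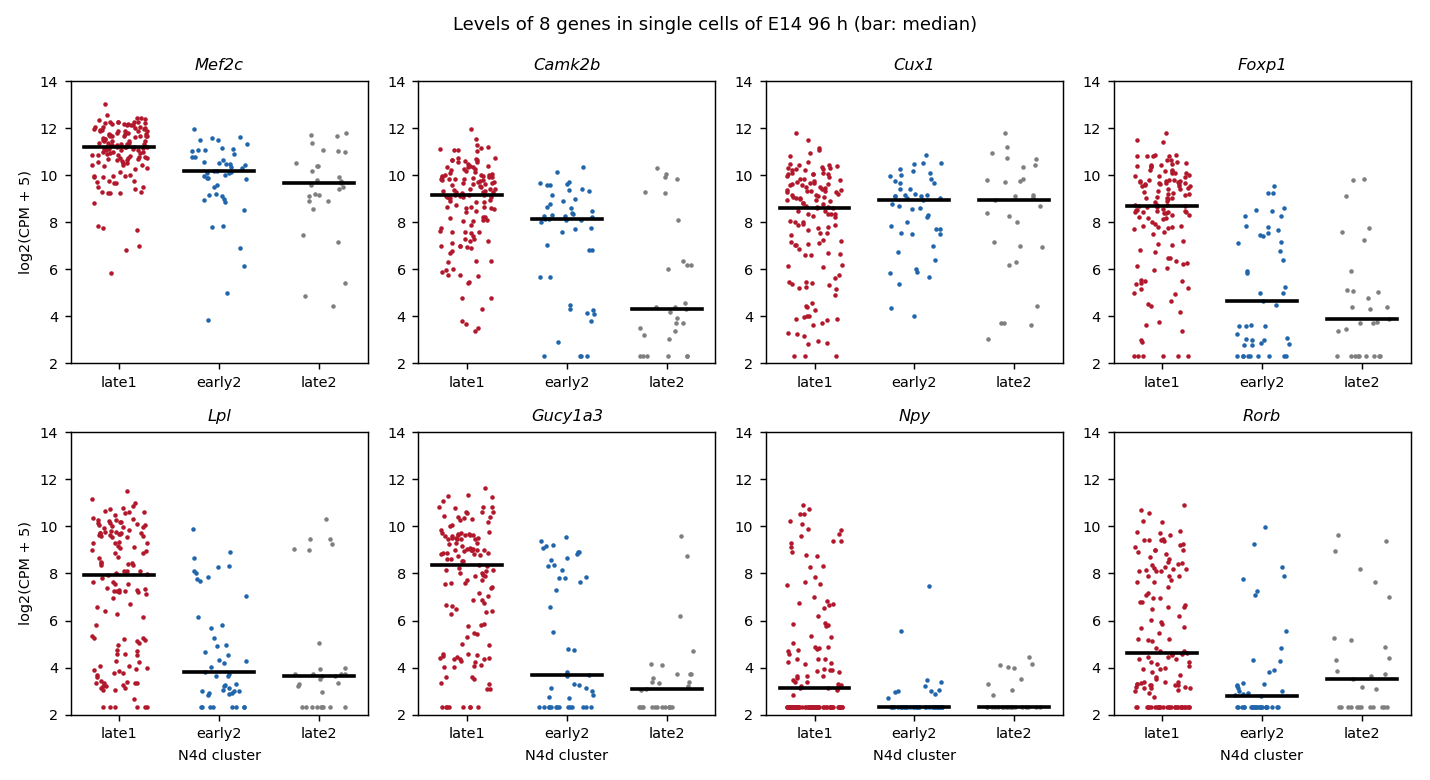
Level of 8 genes, as log2(CPM + 5), in each E14 96 h cell of N4d.late1, N4d.early2 and N4d.late2; bars are medians over cells. Mef2c, Camk2b, Foxp1, Lpl and Gucy1a3 have a higher median in N4d.late1 than in both other clusters, Cux1 does not, and Npy and Rorb spread from no counts to high levels within N4d.late1.

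Of 10117 genes with at least 10 CPM in at least 1 of the 3 sums, 706 were at least 2-fold higher in N4d.late1 than in both other clusters (6.98% of the genes tested) and 180 were at least 2-fold lower than in both (1.78%). The median difference over all tested genes was 0.10 against N4d.early2 and 0.13 against N4d.late2 on the log2 scale. Without the 10 cells with 23 as the second number the counts were 716 and 204, and 648 of the 706 higher genes were still at least 2-fold higher. Without the second numbers 5, 11, 23 and 30, the 4 with the most detected genes, the counts were 742 and 239. In that setting 614 of the 706 were still at least 2-fold higher. Against each cluster alone, 1688 genes were higher (16.7%) and 700 lower (6.92%) than in N4d.early2, and 2505 were higher (24.8%) and 1546 lower (15.3%) than in N4d.late2. N4d.late2 had the fewest cells and the shallowest sum, where 3 counts are worth 0.524 CPM.

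Most of these genes were counted in a minority of cells. Of the 706 higher genes, 28.8%, 20.8% and 31.9% were also above both clusters in the N4d.late1 cells of E12, E13 and E15, against 27.3%, 24.4% and 29.9% of all tested genes. At 2-fold or more these shares were 17.7%, 14.3% and 18.4%, against 10.8%, 11.8% and 10.4%. Of the 180 lower genes, 115, 135 and 120 were below both clusters on these days, against 53.6%, 65.9% and 54.3% of all tested genes. The other days hold 4, 1 and 6 cells of the cluster. A narrower set, chosen after the values were seen, kept the genes counted in at least 50% of the E14 cells of N4d.late1. Of 3640 such genes, 99 were at least 2-fold higher than in both clusters (2.72%), and 28 of the 99 (28.3%) were above both on all of the other 3 days, against 173 of the 3640 (4.75%). The filter used N4d.late1 cells alone, and the authors clustered the cells of all days together. This recurrence is therefore a description of the cluster and not an independent repeat. The 28 genes were picked by their values on the other days, so those values, given below, are no support for them.

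The 28 genes include a transcription factor, a lipase, both subunits of a signalling enzyme and several genes of synapses and axons. Foxp1 (chr6:98925338-99522721), a forkhead transcription factor of many cortical neurons, had 602 CPM in N4d.late1 (95% Poisson interval 594 to 610, counting error only), against 119 CPM in N4d.early2 and 116 CPM in N4d.late2. It was counted in 91.9% of N4d.late1 cells after thinning, against 53.2% of N4d.early2 and 41.4% of N4d.late2 cells. On the other days it had 637, 627 and 296 CPM in the N4d.late1 cells of E12, E13 and E15, and between 37.7 and 145 CPM in all sums of the other 2 clusters. Lpl (chr8:68880491-68907448), a lipase that frees fatty acids from lipoproteins, had 562 CPM in N4d.late1, against 81.9 CPM in N4d.early2 and 125 CPM in N4d.late2, and 153, 592 and 153 CPM in the N4d.late1 cells of E12, E13 and E15. After thinning, 104 of the 135 N4d.late1 cells held counts of both Foxp1 and Lpl. Without the 10 cells with 23 as the second number, N4d.late1 had 604 CPM of Foxp1 and 541 CPM of Lpl.

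Gucy1a3 and Gucy1b3 encode the alpha and beta subunits of soluble guanylate cyclase, the enzyme that makes cyclic GMP in response to nitric oxide, and both stood higher. Gucy1a3 had 554 CPM in N4d.late1, against 163 CPM in N4d.early2 and 37.0 CPM in N4d.late2. Gucy1b3 had 142 CPM in N4d.late1, against 17.2 CPM in N4d.early2 and 52.1 CPM in N4d.late2. In the N4d.late1 cells of E12, E13 and E15, Gucy1a3 had 651, 1938 and 480 CPM and Gucy1b3 120, 240 and 227 CPM, and in each case both other clusters of that day were lower. Pde2a, a phosphodiesterase that cyclic GMP stimulates, had 51.2 CPM in N4d.late1, against 0.982 CPM in N4d.early2 and 4.54 CPM in N4d.late2, and had no counts in the single E13 cell.

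Other genes of the 28 act at synapses, axons and the membrane. Lrfn5, a synaptic adhesion molecule, had 316 CPM in N4d.late1, against 54.7 CPM in N4d.early2 and 72.5 CPM in N4d.late2. Camkv, a kinase-like protein that binds calmodulin, had 195 CPM in N4d.late1, against 55.7 CPM in N4d.early2 and 16.6 CPM in N4d.late2. Nrcam, an adhesion molecule of axons, had 265 CPM in N4d.late1, against 78.7 CPM in N4d.early2 and 68.0 CPM in N4d.late2. Eml1, which binds microtubules, had 276 CPM in N4d.late1, against 86.1 CPM in N4d.early2 and 76.5 CPM in N4d.late2. Atp2b2, a pump that exports calcium, Atp1b1, a subunit of the sodium and potassium pump, and Tnr, an extracellular matrix protein, were called as well, with 237, 204 and 143 CPM in N4d.late1. Mef2c and Camk2b are also among the 28.

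**Figure D4:**
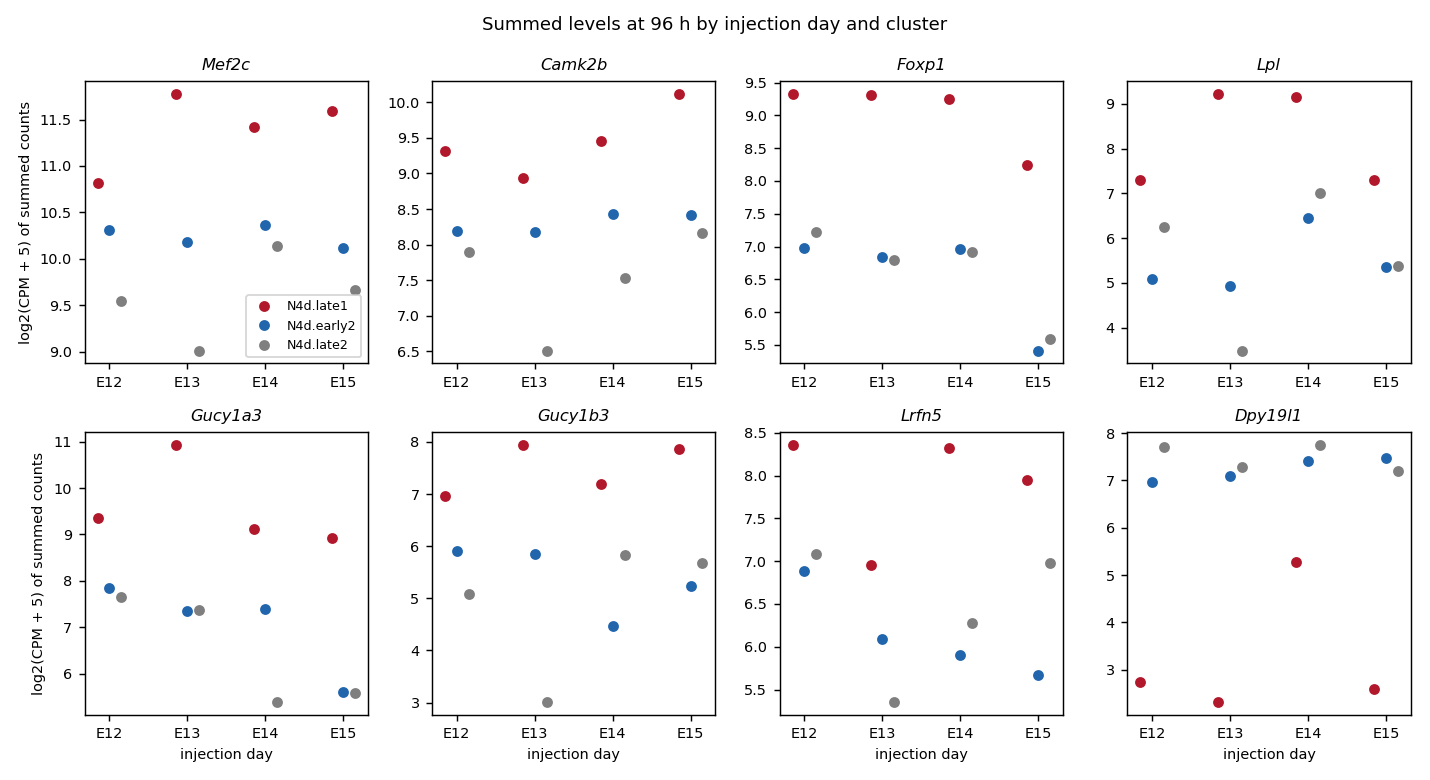
Level of 8 genes, as log2(CPM + 5) of summed counts, in N4d.late1, N4d.early2 and N4d.late2 at 96 h by injection day (4, 1, 135 and 6 N4d.late1 cells at E12, E13, E14 and E15). The first 7 genes were picked for lying above both other clusters on every day, and Dpy19l1 for lying below both on every day.

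The largest differences came from genes counted in part of the cells. Npy, which encodes neuropeptide Y, had 171 CPM in N4d.late1, against 5.63 CPM in N4d.early2 and 2.79 CPM in N4d.late2, and 146 CPM in N4d.late1 without the 10 cells with 23 as the second number. Its level spread widely: the median over N4d.late1 cells was 3.76 CPM, with quartiles of 0 and 42.9 CPM. It had 1082, 262 and 0 CPM in the N4d.late1 cells of E12, E13 and E15. Necab1, a calcium-binding protein of neurons, had 113 CPM in N4d.late1, against 3.21 CPM in N4d.early2 and 0.699 CPM in N4d.late2. Nwd2, whose role is not well known, had 262 CPM in N4d.late1, against 17.5 CPM in N4d.early2 and 42.3 CPM in N4d.late2. Pcsk2, a protease that cuts peptide hormone precursors, Cacna1g, a T-type calcium channel, Osbpl3, a sterol-binding protein, and Pcdh20, a protocadherin, had 77.3, 73.6, 77.7 and 57.0 CPM in N4d.late1. In the other 2 clusters these 4 genes stayed at or below 8.32 CPM. Cep164, Kctd2 and the transcripts RP24-93F24.1 and RP23-317L18.4 completed the 12 genes with the largest differences, at 59.0 to 112 CPM in N4d.late1. The 12 include Pde2a. Above both clusters were 8 of them at E12, 3 at E13 and 8 at E15, against 27.3%, 24.4% and 29.9% of all tested genes. The E13 count is near that share. Cep164 had no counts in the N4d.late1 cells of E12 and E13, against 28.4 to 42.7 CPM in the other sums of these days.

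Of 23 tested genes of neuronal maturation, 8 were at least 2-fold higher in N4d.late1 than in both clusters and 0 were lower, against 6.98% and 1.78% of all tested genes. The 8 include Mef2c and Camk2b, which were given as markers of the cluster. The list had a median of 0.33 against N4d.early2 and 0.72 against N4d.late2. The 8 also include Camkv. Syt1, a calcium sensor of vesicle release, had 380 CPM in N4d.late1, against 146 CPM in N4d.early2 and 72.7 CPM in N4d.late2. Syt1 was above both clusters at E12 and E15 as well, with 716 and 430 CPM in N4d.late1, but not at E13, with 86.0 CPM. Rbfox3, an RNA-binding protein that serves as the neuronal marker NeuN, had 190 CPM in N4d.late1, against 77.1 CPM in N4d.early2 and 67.4 CPM in N4d.late2. Dnm1, which pinches off endocytic vesicles, had 49.6 CPM in N4d.late1, against 6.10 CPM in N4d.early2 and 8.56 CPM in N4d.late2. The other 15 genes did not pass 2-fold against both clusters, for example Map2, a microtubule-associated protein of dendrites, with 872 CPM in N4d.late1, against 893 CPM in N4d.early2 and 1012 CPM in N4d.late2. Of 21 tested genes of vesicle release only Syt1 was called.

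Channels, receptors and adhesion molecules gave counts above the 6.98% of all genes. Of 22 tested voltage-gated channel genes, 6 were higher than in both clusters and 0 lower. Scn2a1, a sodium channel, had 185 CPM in N4d.late1, against 50.1 CPM in N4d.early2 and 60.8 CPM in N4d.late2. Kcnma1, a calcium-activated potassium channel, had 85.8 CPM in N4d.late1, against 11.4 CPM in N4d.early2 and 28.5 CPM in N4d.late2. On the other days Scn2a1 had 207, 44.5 and 56.0 CPM in the N4d.late1 cells of E12, E13 and E15, above both clusters at E12 alone, and Kcnma1 had 11.5, 1.48 and 9.95 CPM, below both on each of these days. Of 24 tested glutamate and GABA receptor genes, 5 were higher and 0 lower, among them Grm5, a metabotropic glutamate receptor, with 97.9 CPM in N4d.late1, against 16.2 CPM in N4d.early2 and 1.05 CPM in N4d.late2. Grm5 was above both at E12, with 167 CPM in N4d.late1, and had no counts in the N4d.late1 cells of E13 and E15. The AMPA receptor gene Gria2 lay between the others, with 2773 CPM in N4d.late1, against 1628 CPM in N4d.early2 and 4877 CPM in N4d.late2.

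Of 26 tested cadherins and axonal adhesion genes, 7 were higher than in both clusters and 1 was lower. Cdh13 had 149 CPM in N4d.late1, against 27.9 CPM in N4d.early2 and 9.43 CPM in N4d.late2. Cdh10 had 118 CPM in N4d.late1, against 7.08 CPM in N4d.early2 and 27.1 CPM in N4d.late2. On the other days Cdh13 had 2.88, 402 and 26.2 CPM in the N4d.late1 cells of E12, E13 and E15, above both clusters at E13 alone. Cdh10 had 90.0, 181 and 159 CPM there, above both at E13 and E15 but not at E12. The lower one was Cntnap2, which organises axonal domains, with 15.3 CPM in N4d.late1, against 42.5 CPM in N4d.early2 and 42.3 CPM in N4d.late2. Of 20 tested postsynaptic genes, 3 were higher and 0 lower (Lrfn5, Lrrc4c and Dlgap1). Of 34 tested axon guidance genes, 1 was higher (Efna5) and 1 lower (Robo1), both near the shares of all tested genes, and 12 were at least 2-fold lower than in N4d.late2 (15.3% of all tested genes).

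**Figure D5:**
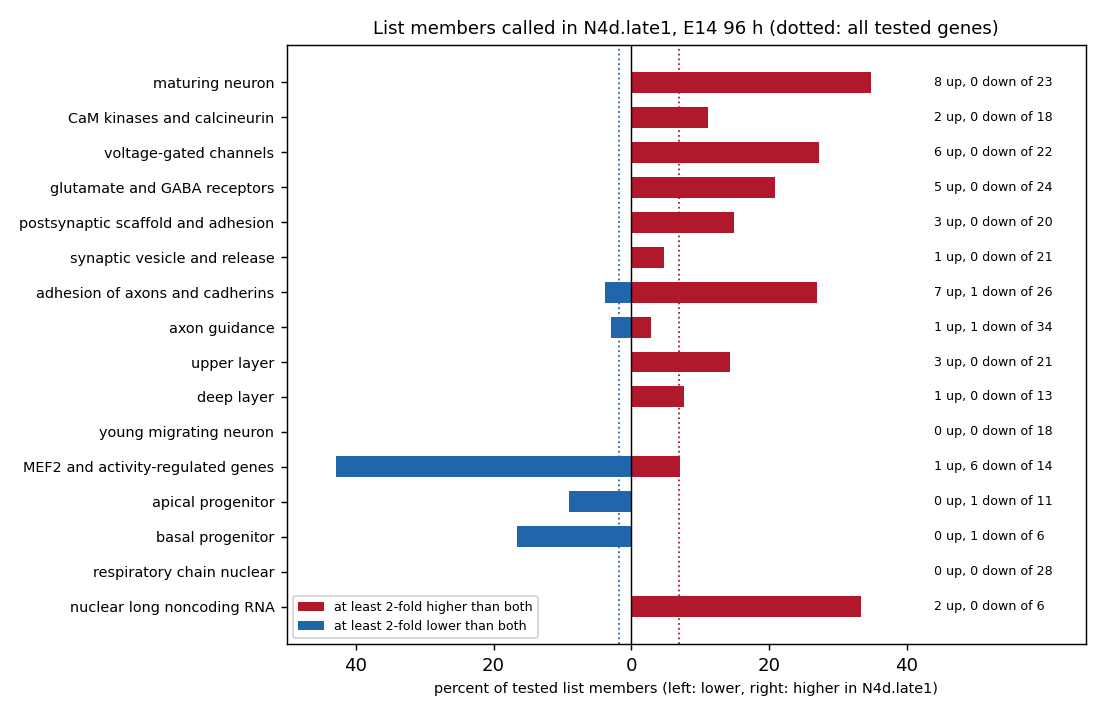
Percent of the tested members of 16 gene lists that were at least 2-fold higher (right) or lower (left) in N4d.late1 than in both other clusters at E14 96 h, with the counts beside each bar; dotted lines are the shares over all tested genes (6.98% higher, 1.78% lower). Maturation genes (8 of 23 higher) and activity-regulated genes (6 of 14 lower) lie farthest from the dotted lines among lists of over 10 tested genes.

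Of 21 tested upper layer genes 3 were higher than in both clusters (Cdh10, Pvrl3 and Rasgrf2) and 0 were lower, against 6.98% and 1.78% of all tested genes. Cux2 had 167 CPM in N4d.late1, against 66.2 CPM in N4d.early2 and 103 CPM in N4d.late2. Rorb, a nuclear receptor of layer 4 neurons, had 186 CPM in N4d.late1, against 54.6 CPM in N4d.early2 and 105 CPM in N4d.late2, which is under 2-fold against N4d.late2. On the other days Rorb had 14.4, 8.90 and 0 CPM in the N4d.late1 cells of E12, E13 and E15, below both other clusters of the same day. Thinned to 50000 counts, 62.2% of the E14 cells of N4d.late1 had a count of Rorb, against 31.9% of N4d.early2 and 37.9% of N4d.late2 cells and 42.6% of astrocytes.

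Of 13 tested deep layer genes 0 were lower than in both clusters and 1 was higher, near the 6.98% of all tested genes. The higher one was Lmo3, a LIM-only transcriptional cofactor that the layer 4 list holds too. Lmo3 had 195 CPM in N4d.late1, against 27.2 CPM in N4d.early2 and 49.6 CPM in N4d.late2. Of the 13 genes, 7 were at least 2-fold higher than in N4d.late2, against 24.8% of all tested genes, with a median of 1.40. Another 2 were at least 2-fold lower than in N4d.late2 (15.3% of all tested genes). Against N4d.early2, 2 were higher and 2 lower (16.7% and 6.92%). Ntsr1, a neurotensin receptor of corticothalamic neurons, had 73.2 CPM in N4d.late1, against 38.6 CPM in N4d.early2 and 1.22 CPM in N4d.late2. Bcl11b, a transcription factor of subcortically projecting neurons, was counted in 20.7% of N4d.late1, 21.3% of N4d.early2 and 20.7% of N4d.late2 cells after thinning, against 13.1% of astrocytes. Of the 28 N4d.late1 cells with a count of Bcl11b, 15 also had one of Rorb. Fezf2, another transcription factor of these neurons, had a count in 1 of 135 N4d.late1 cells.

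Of 14 tested genes of the list of MEF2 and activity-regulated genes, 6 were at least 2-fold lower in N4d.late1 than in both clusters, against 1.78% of all tested genes, and 1, Mef2c, was higher. The 6 were Fos, Fosb, Jund, Egr1, Ier2 and Btg2. Fos and Egr1 are immediate early genes, which neurons switch on within minutes of activity. Btg2 stands on the list of basal progenitor genes as well. Fos had 22.3 CPM in N4d.late1, against 72.1 CPM in N4d.early2 and 110 CPM in N4d.late2. Egr1 had 13.8 CPM in N4d.late1, against 49.1 CPM in N4d.early2 and 87.3 CPM in N4d.late2. Ier2 had 6.44 CPM in N4d.late1, against 52.9 CPM in N4d.early2 and 43.5 CPM in N4d.late2. Most cells of all 3 clusters had no count of them: after thinning, Fos was counted in 17.8% of N4d.late1, 14.9% of N4d.early2 and 31.0% of N4d.late2 cells. In the comparison clusters of E15, Fos had 22.0 CPM in N4d.early2 and 104 CPM in N4d.late2, so N4d.late1 of E14 was lower than N4d.late2 of E15 but not than N4d.early2 of E15. Egr1 was below both clusters on the other 3 days, and Ier2 was not at E15.

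Of the 12 genes named as lower than both, Dpy19l1, Fos and Unc45a were also below both clusters on all of the other 3 days. Below both were 6 of the 12 at E12, 10 at E13 and 6 at E15, against 53.6%, 65.9% and 54.3% of all tested genes. Dpy19l1, which encodes a mannosyltransferase, had 33.6 CPM in N4d.late1, against 165 CPM in N4d.early2 and 209 CPM in N4d.late2. In the N4d.late1 cells of E12, E13 and E15 it had 1.73, 0 and 1.05 CPM, and in the other sums of these days 121 to 202 CPM. Lrrn1, a leucine-rich repeat membrane protein, had 18.7 CPM in N4d.late1, against 99.0 CPM in N4d.early2 and 184 CPM in N4d.late2. Csrp2, a LIM domain protein, had 70.3 CPM in N4d.late1, against 256 CPM in N4d.early2 and 260 CPM in N4d.late2. Ddah1, which breaks down inhibitors of nitric oxide synthase, had 15.1 CPM in N4d.late1, against 80.2 CPM in N4d.early2 and 152 CPM in N4d.late2, and in cells with at least 200000 counts 12.1 CPM in N4d.late1, against 81.8 CPM in N4d.early2 and 3.58 CPM in the 10 such N4d.late2 cells. Trnt1, Rogdi, Lyrm9, Sec23b, Mrpl13, Unc45a and Ten1 completed the 12 lowest. Of 1890 genes counted in at least 50% of the cells of both other clusters, 11 were lower (0.582%). Of these 11, Dpy19l1, Hivep2 and Atp6v0e (27.3%) were below both on all of the other 3 days, against 11.1% of the 1890.

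Several genes of younger and migrating neurons were lower in N4d.late1 than in N4d.late2. Of 18 tested genes of young migrating neurons, 7 were at least 2-fold lower than in N4d.late2 (15.3% of all tested genes) and 1 was at least 2-fold lower than in N4d.early2 (6.92% of all tested genes), and 0 were lower than in both. Unc5d, a netrin receptor of migrating upper layer neurons, had 72.7 CPM in N4d.late1, against 133 CPM in N4d.early2 and 501 CPM in N4d.late2. Nrp1, a semaphorin receptor, had 119 CPM in N4d.late1, against 215 CPM in N4d.early2 and 491 CPM in N4d.late2. Nfib, a transcription factor of late neurogenesis, had 867 CPM in N4d.late1, against 1232 CPM in N4d.early2 and 2583 CPM in N4d.late2. Each of these 3 genes was also below both clusters on the other 3 days. Eomes, which marks basal progenitors, had 6.52 CPM in N4d.late1, against 12.0 CPM in N4d.early2 and 101 CPM in N4d.late2.

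Some genes differed from a single cluster. Sema5a, a semaphorin, had 0.991 CPM in N4d.late1, against 0.879 CPM in N4d.early2 and 66.7 CPM in N4d.late2.

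Measures of RNA and cell quality moved with some of these groups. Of 6 tested nuclear long noncoding RNAs, 2 (Meg3 and Rian) were at least 2-fold higher in N4d.late1 than in both clusters, against 6.98% of all tested genes. Meg3 had 511 CPM in N4d.late1, against 117 CPM in N4d.early2 and 223 CPM in N4d.late2. Of the 6, 5 were higher than in N4d.early2 (16.7% of all tested genes) and 2 than in N4d.late2 (24.8%). The whole list summed to 11833 CPM in N4d.late1, 7964 CPM in N4d.early2 and 13797 CPM in N4d.late2, so its sum was highest in N4d.late2. The 28 tested nuclear genes of the respiratory chain had a median of -0.55 against N4d.early2 and 0.35 against N4d.late2, and 0 were called against both. Tested genes were split by genomic span into 3 groups of equal size. Of the longest genes 9.21% were higher than in both clusters, against 4.98% of the shortest, and the median difference against N4d.early2 was 0.31 in the longest and -0.19 in the shortest. Against N4d.late2 it was 0.08 in the longest and 0.17 in the shortest. Many genes of channels, receptors and adhesion are long. The part of RNA quality and gene span in those counts was not tested.

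The list of interneuron genes was partly higher in N4d.late1. Of its 11 tested members, 2 (Npy and Lhx6) were at least 2-fold higher than in both clusters and 0 were lower, against 6.98% and 1.78% of all tested genes. Against N4d.late2 alone, 6 were higher and 2 lower (24.8% and 15.3% of all tested genes). Against N4d.early2 alone, 2 were higher and 2 lower (16.7% and 6.92%). The list summed to 440 CPM in N4d.late1, 239 CPM in N4d.early2 and 202 CPM in N4d.late2, with medians of 0.66 against N4d.early2 and 1.43 against N4d.late2. Npy alone gave 171, 5.63 and 2.79 CPM of these sums. Lhx6, a transcription factor of interneurons, had 42.0 CPM in N4d.late1, against 16.4 CPM in N4d.early2 and 10.8 CPM in N4d.late2. Of 7 defining interneuron genes (Gad1, Gad2, Dlx1, Dlx2, Dlx5, Lhx6 and Slc32a1), at least 2 reached 20 CPM in 20 of 135 N4d.late1, 4 of 47 N4d.early2 and 0 of 29 N4d.late2 cells, against 27 of 30 cells of the authors' interneuron clusters. Their summed level was 150 CPM in N4d.late1, 130 CPM in N4d.early2, 35.1 CPM in N4d.late2 and 1898 CPM in the interneuron clusters. Npy reached 20 CPM in 43 N4d.late1 cells, of which 12 held at least 2 of these genes and 22 held none, in 2 N4d.early2 cells and in 0 N4d.late2 cells. Summed over the 30 interneuron cells of E14 at 96 h, Npy had 216 CPM, Pde2a 84.4 CPM, Gucy1a3 396 CPM and Gucy1b3 47.1 CPM. Npy and Pde2a were thus higher there than in N4d.late1, and Gucy1a3 and Gucy1b3 lower. Of the 10 cells with 23 as the second number, 8 reached 20 CPM of Npy and 4 held at least 2 interneuron genes. Of 11 tested genes of apical progenitors 0 were higher than in both clusters and 1 was lower, and Fabp7 among them had 129 CPM in N4d.late1, against 326 CPM in N4d.early2 and 243 CPM in N4d.late2. The list of thalamic and other forebrain neurons, which holds Foxp1, summed to 777 CPM in N4d.late1, 359 CPM in N4d.early2 and 942 CPM in N4d.late2. Apoe, a gene of astrocytes and microglia, had 25.4 CPM in N4d.late1, against 6.77 CPM in N4d.early2 and 1.92 CPM in N4d.late2, and 6.51 CPM in N4d.late1 without the second numbers 5, 11, 23 and 30, the 4 with the most detected genes. Genes of microglia and blood summed to 5.14 CPM in N4d.late1, 0.103 CPM in N4d.early2 and 0.175 CPM in N4d.late2. Cells of both sexes were present, since 26 N4d.late1 cells had Xist alone and 62 had Y-linked genes alone at 20 CPM or more. Another 29 of the 135 cells had both, as did 6 of 47 N4d.early2 and 5 of 29 N4d.late2 cells, and 18 had neither. No doublet caller was run, and the part of doublets or carried-over RNA in the results was not tested.

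Beside N1d.late, the authors' cluster of 1-day neurons in E14 at 24 h (154 cells, 64.2 M counts, another run code), N4d.late1 of E14 had 1933 genes at least 2-fold higher (19.9% of 9692 tested) and 1152 at least 2-fold lower (11.9%). On the higher side were 20 of 23 tested receptor genes, 17 of 23 voltage-gated channel genes, 16 of 21 postsynaptic genes, 9 of 22 genes of vesicle release and 8 of 9 interneuron genes. Mef2c had 2738 CPM in N4d.late1 and 9.46 CPM in N1d.late, and Lpl had 562 CPM in N4d.late1 and 3.91 CPM in N1d.late. On the lower side were 12 of 19 genes of young migrating neurons, 7 of 8 of basal progenitors and 8 of 14 of the deep layers. Nrp1 had 119 CPM in N4d.late1 and 1264 CPM in N1d.late, and Dpy19l1 had 33.6 CPM in N4d.late1 and 192 CPM in N1d.late. Collection time and run code cannot be told apart here.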

How the data were processed

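The values were whole read counts per gene and cell, deposited by the authors with no normalization, for 2756 cells sequenced after capture on a C1 HT circuit and SMART-Seq v4 cDNA synthesis, per the labels. TopHat2 2.0.13, UMI-tools and the build GRCm38 are named, without roles, per the submitters' processing notes. The counter, the annotation and the cell filters are not given in the sources used here. Column totals were at least 0.987 of the labelled read numbers, so counts were taken as reads and not as molecules, and intervals cover counting error only. No doublet caller was run, and the labels do not say that doublets were removed.

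Clusters are the authors' labels. Counts were summed over the cells of a cluster within a day and time and divided by the sum's total. A gene was called when it had at least 10 CPM in at least 1 of the 3 sums and, with 5 CPM added, differed at least 2-fold from both other clusters in the same direction. With 1 sample a condition no test was run. Cells were thinned to 50000 counts at random with a fixed seed. The text names up to 12 genes per direction with the largest smaller-of-2 difference among genes with at least 50 CPM and counts in 25% of cells on the higher side, up to 4 against each cluster, up to 3 from each of 34 lists, and the given markers; other list members are given as counts or examples. Genes counted in at least 50% of cells, and the single genes shown from lists beyond this rule, were chosen after the values were seen. The members and lists were chosen with earlier results of these data known. Not all genes that met these rules are described in the text. Gene spans came from GENCODE vM21 (GRCm38), where 94.0% of tested genes matched 1 entry. The calling rule was run on sums drawn with known folds from 1 pooled profile, without the spread between cells. Thinning was checked on deposited cells, by the total left in each cell. Alternatives were TMM factors (edgeR 4.0.16) and other settings of scaling, filter, pseudocount and cells. Scripts ran in Python 3.11.15 (scipy 1.17.1, numpy 2.4.6, pandas 2.3.3).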

Additional observations from a re-analysis of the deposited data

Results flagged for a closer look

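The share of N4d.late1 at E14 stood far from the other 3 injection days. It was 63.98% of the N4d cells and 53.15% of all cells at 96 h, whereas the next highest day, E15, had 4.62% and 2.53%. The gap to the next day was 0.935 and 0.959 of the whole range over the 4 days, above the limit of 0.829 for 4 values. The days are not replicates of a group, and chance alone passes this limit in about 1 of 20 groups. E14 and E15 shared a run code, and the part of the run in this gap was not tested. The share at E14 was 62.2% without the cells with 23 as the second number.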

How the results depend on the processing

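With 1 sample a condition these are counts and values with no test, the 3 days other than E14 rest on 4, 1 and 6 cells, and N4d.late2 is the shallowest sum. Scaling moved the median of all genes from 0.10 to -0.04 against N4d.early2 and from 0.13 to -0.02 against N4d.late2 (median-of-ratios factors), and the counts were 596 higher and 225 lower with TMM and 560 and 248 with median-of-ratios factors. Of 80 named genes past 2-fold, 35 stayed past it in all 16 alternatives, among them Foxp1, Lpl, Gucy1a3, Gucy1b3, Camkv, Lrfn5, Nrcam, Eml1, Npy, Necab1, Nwd2, Grm5, Scn2a1, Syt1, Lmo3, Dpy19l1, Lrrn1, Egr1 and Ier2. Mef2c and Camk2b, with differences near 2-fold, did not stay past it in all. By their construction, dropping the low-count filter, a floor of 50 CPM and a pseudocount of 1 CPM could not bring a named gene under 2-fold. Each of these settings kept 80 of 80, so they add nothing to this tally. The alternatives that leave out cells with many interneuron genes or with certain second numbers and the floor of 50 CPM were chosen after seeing the data. No paired analysis was possible because the results come from no test.

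Against 706 higher and 180 lower genes, a pseudocount of 1 CPM gave 306 lower genes, one of 20 CPM gave 216 higher and 36 lower, a floor of 50 CPM gave 191 higher and 88 lower, E14 and E15 cells together gave 447 higher, and comparison cells of E15 gave 330 lower. These changes follow in part from the settings' own construction, since a larger pseudocount and a higher floor hold back low genes. Against 99 higher genes counted in at least 50% of cells, keeping only cells with at least 200000 counts gave 164 and keeping only cells with at most 8% mitochondrial counts gave 154. Against 11 lower ones, these 2 settings gave 25 and 21, median-of-ratios factors gave 23, a pseudocount of 20 CPM gave 6 and comparison cells of E15 gave 55. The cause was not tested. The count of 28 genes above both clusters on the other 3 days ranged from 20 to 30 over the alternatives that gave a value. The share of N4d.late1 at E14 was 63.3% in cells with at least 200000 counts and 57.4% in cells with at most 8% mitochondrial counts. The median of detected genes in N4d.late1 was 2394 at 20000 counts and 3416 at 100000 counts a cell, as the depth sets it.

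For 10 genes named by the rule, the log2 difference against 1 or both of the other clusters turned round, and the value of the one that did so most is given. In cells with at least 200000 counts it was 1.18 for Pax6, 0.65 for Btg2 and 0.99 for Ddah1, and in cells with at most 8% mitochondrial counts 1.71 for Pax6 and 0.64 for Btg2. With comparison cells of E15 it was 1.01 for Ten1, 0.31 for Trnt1, 0.26 for Btg2, 0.035 for Pax6, 0.015 for Fos, -0.048 for Kctd2, -0.18 for Rian, -0.20 for Adam10 and -2.34 for Apoe. For Apoe it was -1.72 with E14 and E15 cells together, -0.19 without cells with 2 or more interneuron genes and -0.073 without the 4 second numbers. The cause was not tested.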
